A study of Mus musculus with 91 samples.

Results

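The genes described here carry fatty acids into liver cells or hold them once inside, and were chosen by name as a fixed set of 8: Cd36, Lpl, Vldlr, Slc27a1, Slc27a2, Slc27a4, Fabp1 and Fabp2. All 8 were measured, among 18193 genes tested, by 18 of 45037 probe sets on 91 mouse liver arrays. The mice were adult males on a C57BL background, in 19 groups of 5, except that 4 groups held 4 livers each (piperonyl butoxide and the carboxymethylcellulose cohorts Co1, Co3 and Co5). Their age in weeks was not given in the sources used here.

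Treatment lasted 28 days unless stated. Phenobarbital was given at 0.05% (w/v) in drinking water for 28 or 56 days, with water (H2O) controls of the same duration. Cyproterone acetate (CPA, 160 mg/kg) and 1,4-dichlorobenzene (DCB, 600 mg/kg) were given daily by gavage and share 1 corn oil group (CO). Piperonyl butoxide (PBO, 600 mg/kg, intraperitoneal) was set against carboxymethylcellulose cohort Co2, Wy-14643 (WY, 100 mg/kg, gavage) against Co1, and pioglitazone (Pio, 100 mg/kg, gavage) against Co5. Methapyrilene HCl (MePy, 1000 ppm in food) was assigned the carboxymethylcellulose (CMC) cohort Co3. CITCO (10 mg/kg, intraperitoneal) was given to C57BL mice, with Co4 as control, and to the strain labelled C57BL/hCAR/hPXR, with a CMC group of that strain.

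Long-chain fatty acids reach hepatocytes bound to albumin or packed in triglyceride-rich lipoproteins. Cd36 is a membrane glycoprotein that binds fatty acids and helps them enter the cell; Lpl is the lipase that frees fatty acids from circulating triglyceride, and Vldlr is a receptor that binds triglyceride-rich lipoproteins. Slc27a1, Slc27a2 and Slc27a4 encode the transport proteins FATP1, FATP2 and FATP4, which also activate fatty acids to their acyl-CoA form. Fabp1, the liver form, and Fabp2, first described in intestine, are cytosolic proteins that bind fatty acids. Adult liver normally has much Fabp1 and Slc27a2 and little Lpl and Vldlr. PPARs are nuclear receptors that fatty acids activate, and several of these genes are known PPAR targets. Wy-14643 is an agonist of PPAR alpha, pioglitazone of PPAR gamma and CITCO of human CAR, while phenobarbital activates CAR indirectly.

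Because PPARs bind a direct repeat of a hexamer with a 1-base spacer, the sequence around the start sites was searched for it. The motif searched was AGGNCANAGGNCA, on both strands, together with its single hexamer AGGTCA, which overlaps it. RefSeq promoter windows (build GRCm38.p6, 250 bases before to 50 after a start site) were matched for 7 of the 8 genes, in 10 windows. The direct repeat was found in 1 of the 7 genes, Fabp1, which is 1 of the 10 windows, and in 125 of 32851 windows in all (0.381%). The hexamer was found in 3 of the 7 (Cd36, Fabp1 and Slc27a2), each with 1 window, and in 16.3% of all windows. The 250 upstream bases of these 3 are shown 5′ to 3′, as examples with and without the repeat. Capitals mark the direct repeat in Fabp1, which ends 55 bases before the start site, and the single hexamer, read from the opposite strand, in the others. The windows lie at chr6:71199629-71199878 (plus strand), chr5:17835897-17836146 (minus strand) and chr2:126552774-126553023 (plus strand). The only Cd36 window lies inside the annotated gene (chr5:17781690-17888959), so the sequence at the gene's upstream end was not searched. A match describes these letters and not binding.
Fabp1: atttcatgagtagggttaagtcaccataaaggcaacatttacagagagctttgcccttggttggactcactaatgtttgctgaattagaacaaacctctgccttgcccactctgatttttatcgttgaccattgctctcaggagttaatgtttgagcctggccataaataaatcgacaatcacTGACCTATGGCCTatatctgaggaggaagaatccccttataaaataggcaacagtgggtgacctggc
Cd36: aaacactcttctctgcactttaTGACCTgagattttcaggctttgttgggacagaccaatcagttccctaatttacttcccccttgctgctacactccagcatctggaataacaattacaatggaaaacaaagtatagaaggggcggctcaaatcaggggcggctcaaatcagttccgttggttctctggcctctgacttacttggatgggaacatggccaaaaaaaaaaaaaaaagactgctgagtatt
Slc27a2: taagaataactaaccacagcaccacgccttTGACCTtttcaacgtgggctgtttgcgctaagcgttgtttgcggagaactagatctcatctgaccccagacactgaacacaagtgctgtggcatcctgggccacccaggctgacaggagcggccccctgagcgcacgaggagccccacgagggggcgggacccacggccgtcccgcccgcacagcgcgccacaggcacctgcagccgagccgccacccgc

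All values are log2 expression values from RMA, and a fold change is a difference between group means on that scale. Values on the arrays ran from 2.61 to 15.34 and array medians from 5.18 to 5.36, and each array correlated with the others of its group at a mean r of 0.974 to 0.993. Hepatocyte markers were high in all groups (Alb 15.07 to 15.21 as group means). As means over all arrays, the 5 adipocyte markers ran from 3.51 (Adipoq) to 14.51 (Car3, which liver also expresses), the 5 muscle markers from 3.72 (Tnnt3) to 6.22 (Ckm), the 5 intestine markers from 4.33 (Vil1) to 7.48 (Lgals4) and the 5 exocrine pancreas markers from 4.44 (Cpa1) to 8.87 (Cela1). Fabp1 (14.29 to 15.11 over the 91 livers) and Slc27a2 (13.37 to 14.41) lie near the top of the scale, where folds can be compressed, and Vldlr (4.32 to 7.67) lies low.

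The known response genes went against the labels of a pair of groups. In the livers labelled Pio, Cyp2b10, the classic CAR target, was at 11.41, 11.84, 10.93, 11.63 and 12.23, against 5.82, 5.75, 5.27 and 5.35 in Co5. It rose by 6.06 ± 0.49 (SE; adjusted p = 1.17e-15 in the limma fit over all genes). None of 7 measured PPAR gamma marker genes passed there, where 0.022% of all genes did in either direction. With so few genes passing, that count says little by itself. In the livers labelled MePy, Cidea, a lipid droplet gene that PPAR gamma raises in fatty liver, was at 8.65, 6.99, 9.77, 4.33 and 8.04, against 4.29, 4.27, 4.52 and 4.69 in Co3. Cidea rose by 3.11 ± 0.56 (adjusted p = 0.000599), with Cidec (2.55) and Plin4 (1.70). So 3 of the 7 passed, where 0.148% of all genes were higher, and Cyp2b10 did not pass. With the PPAR alpha agonist WY, mean Cidea was also higher, at 9.60 against 4.57 in Co1. A high Cidea was thus not particular to the livers labelled MePy, and the receptor behind it was not tested. Mean Cyp4a14, a PPAR alpha target, was 12.62 in the livers labelled MePy and 10.99 in Co3. The Pio and MePy groups are therefore called the livers labelled Pio and the livers labelled MePy throughout, and no direction reported for them is tied to the compound named. Their control cohorts, Co5 and Co3, were assigned by the same labels, and whether these are the matching controls was not tested.

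Cd36 rose in 4 of the 10 comparisons of a treated group with its control, more often than any other of the 8 genes, and Slc27a4 passed in none. Lpl rose in 1 and fell in 1, Slc27a2 fell in 2, Fabp1 fell in 1, and Vldlr, Fabp2 and Slc27a1 each rose in 1. The threshold throughout is an adjusted p of 0.05, over all 18193 genes.

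**Figure D1:**
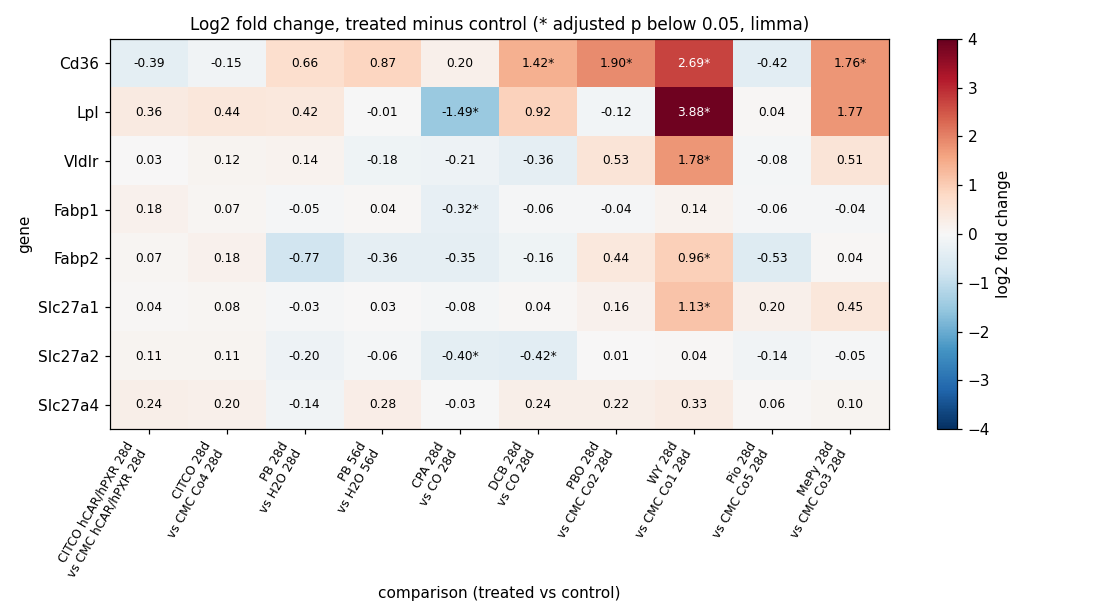
Log2 fold change of each gene (rows) in each of the 10 treated groups against its control (columns), with red above and blue below 0 and an asterisk where the adjusted p was below 0.05. The WY column has 5 asterisks, led by Lpl at 3.88, and Cd36 carries an asterisk under DCB, PBO, WY and MePy.

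Wy-14643 raised 5 of the 8 genes and lowered none, where 5.55% of all genes tested were higher. The median change over the 8 was 1.05, against -0.04 over all genes. Lpl was at 13.05, 12.62, 13.01, 12.88 and 13.06 in the WY livers, and at 9.32, 8.80, 9.42 and 8.65 in the Co1 livers. Every WY liver was far above every control, and the WY livers were close to one another. Lpl rose by 3.88 ± 0.46 (SE), a 14.7-fold change (adjusted p = 4.43e-10, limma). No liver of any other group reached the lowest WY value.

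Cd36 was at 12.61, 10.87, 12.36, 11.56 and 11.87 with WY, against 9.22, 9.43, 8.88 and 9.12. The groups did not overlap, although the second WY liver stood below the other 4. The rise was 2.69 ± 0.34, or 6.45-fold (adjusted p = 5.06e-09). Vldlr, the lipoprotein receptor, was at 7.67, 6.05, 6.43, 7.31 and 6.53, against 5.06, 4.95, 4.67 and 5.42. Again the groups were apart. Vldlr rose by 1.78 ± 0.20, or 3.43-fold (adjusted p = 5.88e-11), and like Lpl its WY livers lay above every liver of the next highest group.

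**Figure D2:**
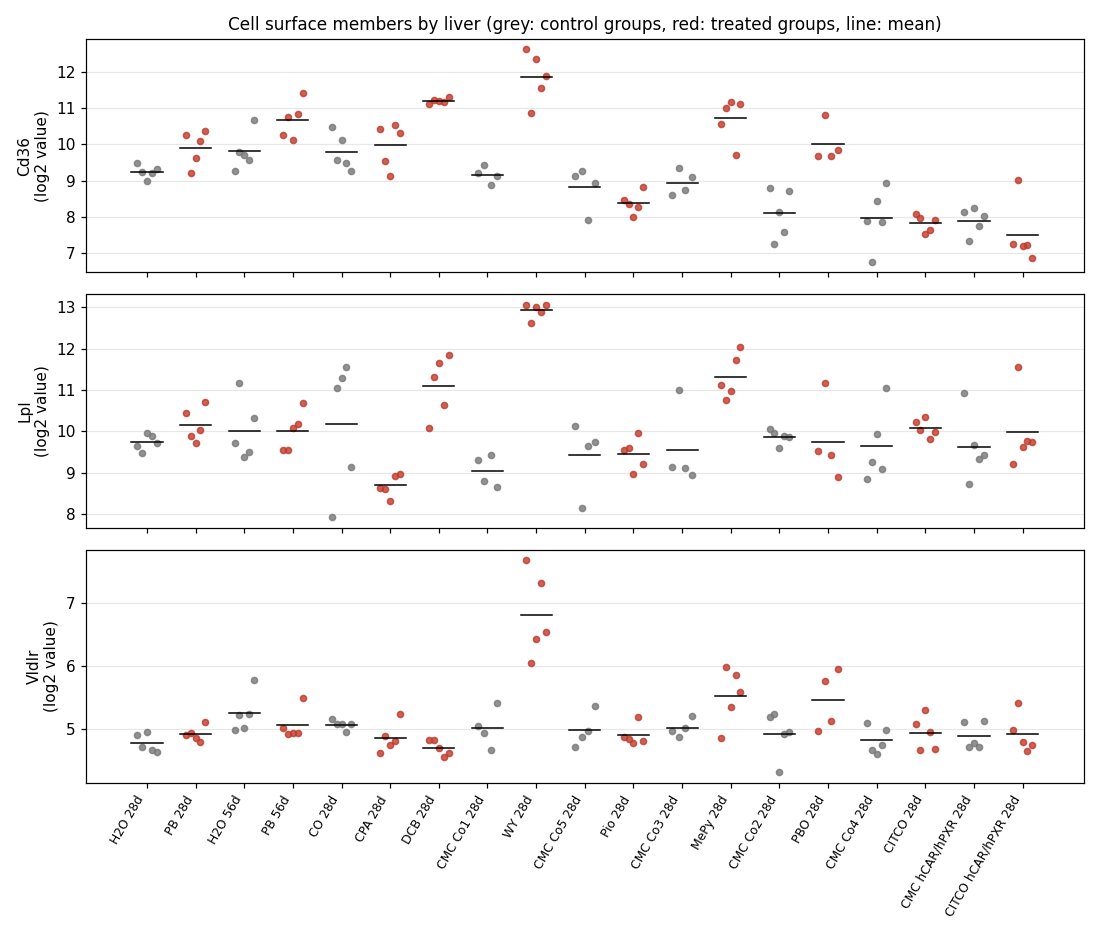
Log2 values (vertical axis) of Cd36, Lpl and Vldlr in each liver of the 19 groups (horizontal axis), with control groups in grey, treated groups in red and a line at each group mean. The WY livers lie highest for Lpl (12.62 to 13.06) and Vldlr (6.05 to 7.67), and the DCB livers lie close together for Cd36 (11.11 to 11.30).

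Of the transport proteins, Slc27a1 rose with WY and Slc27a2 and Slc27a4 did not pass. Slc27a1 was at 8.32, 5.89, 7.80, 7.15 and 6.56, against 6.04, 6.01, 5.78 and 6.22. Of the 5 WY livers, 4 were above all controls and the second lay among them. The rise was 1.13 ± 0.20 (adjusted p = 4.28e-05). Slc27a4 differed by 0.33 ± 0.12 (adjusted p = 0.0683) and Slc27a2 by 0.04 ± 0.08 (adjusted p = 0.813).

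Of the binding proteins, Fabp2 rose and Fabp1 did not pass. Fabp2 was at 12.27, 10.26, 12.22, 11.53 and 11.83, against 10.40, 10.89, 10.59 and 10.76. The second WY liver was below every control and the other 4 above. Fabp2 rose by 0.96 ± 0.22 (adjusted p = 0.00207). Fabp1 showed the same layout on a narrower scale, at 15.10, 14.68, 15.11, 15.01 and 15.04 against 14.84, 14.85, 14.84 and 14.87, and differed by 0.14 ± 0.08 (adjusted p = 0.246).

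The second WY liver was the lowest of the 5 for every one of the 8 genes except Slc27a4. Its Cidea level was 4.95, where the other WY livers were at 9.55 to 12.29, yet its Cyp4a14, a PPAR alpha target, was at 13.81 beside 14.02 to 14.32. Without it the same 5 genes passed, and the rises became 3.95 for Lpl, 2.93 for Cd36, 1.96 for Vldlr, 1.44 for Slc27a1 and 1.30 for Fabp2. With only the WY and Co1 livers in the fit, Slc27a1 and Fabp2 no longer passed (adjusted p = 0.114 for both). Against the mean of the 5 C57BL CMC cohorts all 8 genes passed. That mean includes Co2 and Co4, the controls of compounds given intraperitoneally.

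**Figure D3:**
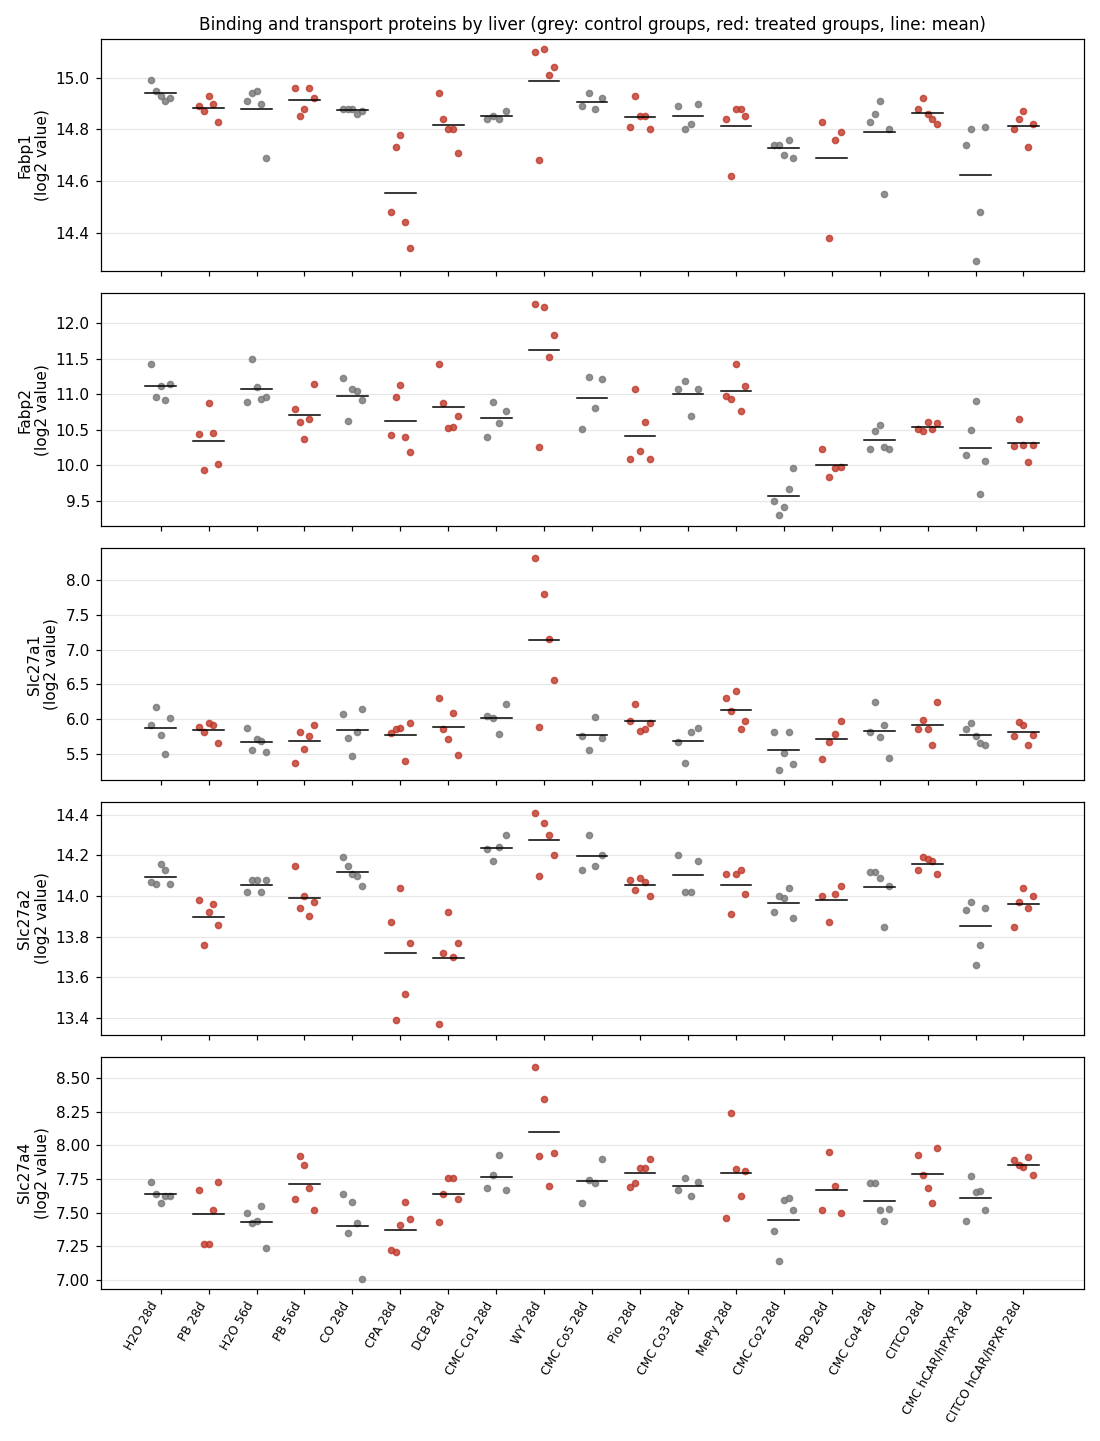
Log2 values (vertical axes, each with its own range) of the binding proteins Fabp1 and Fabp2 and the transport proteins Slc27a1, Slc27a2 and Slc27a4 in each liver of the 19 groups (horizontal axis), controls grey, treated red, line at the mean. Slc27a1 with WY spreads from 5.89 to 8.32, and Slc27a2 with CPA and DCB reaches down to 13.39 and 13.37.

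Other genes of fatty acid handling were counted by list. Among transport proteins and acyl-CoA synthetases other than the 8, 4 of 9 measured rose with WY: Mfsd2a, a lysophospholipid carrier, by 1.93, and the synthetases Acsl4 by 1.13, Acsl3 by 0.94 and Acsl5, which the naming rule does not cover, by 0.77. Their list median was 0.14, against -0.04 over all genes. Among other binding proteins 3 of 11 rose, with Fabp4, the adipocyte form, by 5.14, Fabp5 by 2.24 and Dbi, which binds acyl-CoA, by 0.39. Of 13 lipases and lipase regulators, 2 fell, Angptl8, an inhibitor of the lipase, by 2.29 and Apoc3 by 0.22. Counted over both directions, 8.67% of single probe sets with 1 gene symbol passed with WY. Of 6 lipoprotein receptors other than Vldlr, 0 passed. Macrophages also express Lpl and Cd36, and 6 of 10 macrophage markers rose with WY. Their mean level was 7.38 to 8.67 in the WY livers and 6.68 to 7.31 in Co1. C1qb rose by 1.70, Cd5l by 1.68 and C1qa by 1.61. One endothelial marker of 10 (Lyve1, 1.57) and 1 stellate marker of 10 (Hgf, 0.72) rose as well. The part of these cells in the change of Lpl or Cd36 was not tested, and in whole liver more cells of a type cannot be told apart from more RNA per cell.

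In the livers labelled MePy, Cd36 rose and no other of the 8 passed, where 0.148% of all genes were higher. Cd36 was at 10.56, 11.01, 11.17, 9.70 and 11.12, against 8.61, 9.34, 8.74 and 9.10 in Co3. The groups did not overlap. The rise was 1.76 ± 0.34, or 3.39-fold (adjusted p = 0.00233), and the adjusted p was 0.0516 with only these groups in the fit. Lpl was at 11.12, 10.75, 10.98, 11.73 and 12.03, against 9.15, 11, 9.12 and 8.94. The second Co3 liver lay among the treated ones. Lpl differed by 1.77 ± 0.46 (adjusted p = 0.0851), and without that control the difference was 2.25 (adjusted p = 0.0129). The fourth liver, lowest for Cidea at 4.33, was also lowest for Cd36 and was at 11.73 for Lpl. Without it Cd36 differed by 2.02.

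Vldlr differed by 0.51 ± 0.20 (adjusted p = 0.511) and Slc27a1 by 0.45 ± 0.20 (adjusted p = 0.665) in the livers labelled MePy. Of the other binding proteins 1 of 11 rose, Fabp4 by 3.37. None of the 9 other transport and synthetase genes, the 13 lipases and regulators or the 6 receptors passed. Macrophage markers had 0 of 10 called, with mean levels of 7.51 to 9.12 against 6.76 to 7.89 in Co3, and their part in the result was not tested.

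In the livers labelled Pio, none of the 8 genes passed in the limma fit, where 0.022% of all genes did in either direction, and 1 of the 8 had an unadjusted p below 0.05. Cd36 was at 8.48, 8.37, 8.0, 8.29 and 8.83, against 9.13, 9.28, 7.91 and 8.95 in Co5, with overlapping ranges. It differed by -0.42 ± 0.34. Fabp2 differed by -0.53 ± 0.22 (adjusted p = 0.536). The 95% interval of the Lpl difference ran from -0.87 to 0.95.

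The responses were compared with one another by their difference in the limma fit. Wy-14643 raised 4 of the 8 genes more than was seen in the livers labelled Pio, where 1.57% of all genes were higher. The differences were 3.83 ± 0.64 for Lpl (adjusted p = 2.96e-05), 3.11 ± 0.48 for Cd36 (4.53e-06), 1.86 ± 0.28 for Vldlr (2.26e-06) and 1.49 ± 0.32 for Fabp2 (0.00175), a call lost when the 4 groups concerned were fitted alone (adjusted p = 0.0663). Against the livers labelled MePy, 1 of the 8 passed, where 0.616% of genes were higher. This was Vldlr, with a difference of 1.26 ± 0.28 (adjusted p = 0.0057). The Lpl difference was 2.11 ± 0.64 (adjusted p = 0.0863). When the 4 groups of this difference were fitted alone, Vldlr did not pass (adjusted p = 0.178) and Lpl did (adjusted p = 0.0395). The Cd36 difference was 0.93 ± 0.48 (adjusted p = 0.421). Cd36 responded less in the livers labelled Pio than in those labelled MePy, by -2.19 ± 0.48 (adjusted p = 0.0238), where 0.115% of genes were lower; this call held in 8 of 18 fits that left out 1 liver and was lost with the probe set of largest variance (adjusted p = 0.123).

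1,4-Dichlorobenzene raised Cd36 and lowered Slc27a2, so 2 of the 8 genes passed, where 2.15% of all genes were higher and 1.67% lower. Cd36 was at 11.11, 11.22, 11.20, 11.17 and 11.30, against 10.47, 9.56, 10.13, 9.49 and 9.27 with corn oil. All treated livers were above all controls and their SD, 0.07, was the smallest of the 19 groups for Cd36. The rise was 1.42 ± 0.32, or 2.67-fold (adjusted p = 0.00248). Slc27a2, a liver transport protein of the family, was at 13.37, 13.72, 13.92, 13.70 and 13.77, against 14.19, 14.15, 14.11, 14.10 and 14.05. The groups did not overlap, and it fell by 0.42 ± 0.07 (adjusted p = 2.09e-05).

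Lpl did not pass with DCB (0.92 ± 0.43, adjusted p = 0.281), at 10.09, 11.32, 11.66, 10.63 and 11.84. The corn oil livers were at 7.93, 11.04, 11.30, 11.55 and 9.13. That SD of 1.59 was the largest of any group for Lpl. Of the lists, Lrp1 and Sdc1, which take up lipoprotein remnants, fell by 0.71 and 0.49 among 6 receptors, Apoc2, the lipase activator, rose by 0.47 among 13, and Scp2 fell by 0.33 among 11. Of 9 hepatocyte markers 3 fell (Hnf4a by 0.54, Fgb by 0.37, Apoa1 by 0.15), and the mean hepatocyte level was 13.30 to 13.81 against 13.78 to 13.88. The first DCB liver was lowest for the mean of these markers (13.30) and for Slc27a2 (13.37). Slc27a2 passed in all 10 fits that left out 1 liver. The part of the lower hepatocyte markers in the fall of Slc27a2 was not tested.

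Cyproterone acetate lowered 3 of the 8 genes and raised none, where 2.7% of all genes were lower. Lpl was at 8.64, 8.62, 8.32, 8.93 and 8.97, beside the spread corn oil livers given above. The ranges overlapped through the first corn oil liver. Lpl fell by 1.49 ± 0.43 (adjusted p = 0.0237), and the call was lost without corn oil replicate 2, 3 or 4 or CPA replicate 2 or 3 (adjusted p = 0.0556 to 0.134) and with the probe set of largest variance (adjusted p = 0.0782). Slc27a2 was at 13.87, 13.39, 14.04, 13.52 and 13.77, below all corn oil livers. It fell by 0.40 ± 0.07 (adjusted p = 6.48e-05). Fabp1, the abundant liver binding protein, was at 14.48, 14.73, 14.78, 14.44 and 14.34, against 14.88, 14.88, 14.88, 14.86 and 14.87. It was lower in every CPA liver and fell by 0.32 ± 0.07 (adjusted p = 0.00169). With only the CPA and corn oil livers in the fit, none of the 8 passed.

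Among other genes with CPA, Cav1, a membrane protein tied to fatty acid uptake, rose by 2.85 (1 of 9 in its list), Lipg, the endothelial lipase, fell by 1.08 and Furin by 0.45, while Apoc3 rose by 0.20. Counted over both directions, 4.09% of single probe sets with 1 gene symbol passed with CPA. The PPAR alpha markers Cyp4a14, Acaa1b and Ehhadh fell by 3.20, 1.02 and 0.84, which is 3 of 7. Of 9 hepatocyte markers 2 fell, Hnf4a by 0.47 and Apoa1 by 0.14, and the part of this in the falls above was not tested. The second CPA liver was lowest for the mean of these markers, at 13.28 beside 13.71 to 13.85, and for Slc27a2 (13.39). Slc27a2 passed in all 10 fits that left out 1 liver.

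The direct comparison of CPA with DCB needs no corn oil liver. There 3 of the 8 genes were lower with CPA, where 2.37% of all genes were lower: Lpl by -2.41 ± 0.43 (adjusted p = 5.13e-05), Cd36 by -1.22 ± 0.32 (adjusted p = 0.0124) and Fabp1 by -0.27 ± 0.07 (adjusted p = 0.0145). Lpl and Cd36 did not overlap between the groups and Fabp1 did. Without the third CPA liver Cd36 did not pass (adjusted p = 0.0808), and the Fabp1 call was lost without CPA replicate 4 or 5 or DCB replicate 1, when CPA and DCB alone were fitted (adjusted p = 0.27) and with the mean of all probe sets (-0.19, adjusted p = 0.0851). Slc27a2 differed by 0.02, with a 95% interval from -0.12 to 0.16.

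Piperonyl butoxide raised Cd36 and no other of the 8, where 0.489% of all genes were higher. Cd36 was at 9.68, 10.80, 9.69 and 9.84, against 8.80, 7.27, 8.13, 7.58 and 8.72 in Co2. The groups did not overlap. The rise was 1.90 ± 0.34, or 3.74-fold (adjusted p = 0.000349). It was 1.40 against the mean of the 5 C57BL CMC cohorts, which include controls of compounds given by gavage. The adjusted p was 0.0527 with only the 2 groups in the fit and 0.0543 with the probe set of largest variance. Without the second PBO liver, which was also highest for Cyp2b10 at 11.89 beside 6.07 to 8.06, the rise was 1.64. Vldlr differed by 0.53 ± 0.20 (adjusted p = 0.214). Cav1 rose by 1.38, 1 of 9 in its list, and 1 of 10 macrophage markers fell, Marco by 1.98. Counted over both directions, 0.587% of single probe sets with 1 gene symbol passed with PBO.

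Phenobarbital changed none of the 8 genes at 28 days, where 0.967% of all genes passed, or at 56 days, where 0.566% did, in the limma fit. At an unadjusted p below 0.05 there were 3 at 28 days and 2 at 56 days. Fabp2 was at 10.44, 9.94, 10.88, 10.45 and 10.02 after 28 days of phenobarbital, against 11.43, 10.96, 11.12, 10.92 and 11.15. The groups did not overlap, but the difference of -0.77 ± 0.21 missed the threshold (adjusted p = 0.0518); it passed under 4 of the alternative settings (adjusted p = 0.00529 to 0.0433). Cd36 differed by 0.66 ± 0.32 at 28 days and 0.87 ± 0.32 at 56 days (adjusted p = 0.511 and 0.381). The change between the 2 times passed for none, where 0% of all genes did, with 879 of them and 1 of the 8 (Slc27a4, 0.43 ± 0.16) at an unadjusted p below 0.05.

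CITCO changed none of the 8 in either strain, where 0.0989% of all genes passed in the hCAR/hPXR strain and 0.0055% in C57BL, in the limma fit. At an unadjusted p below 0.05 there were 2 and 0. Slc27a4 in the hCAR/hPXR strain was at 7.89, 7.85, 7.84, 7.91 and 7.78, against 7.44, 7.77, 7.65, 7.66 and 7.52. The ranges were just apart, and the difference was 0.24 ± 0.12 (adjusted p = 0.674). Cyp2b10 separated the strains, at 11.23 to 12.30 with CITCO in hCAR/hPXR livers and 5.87 to 6.22 with CITCO in C57BL livers. The difference between the strains' responses passed for none of the 8, where 0.0055% of all genes did, with 0 at an unadjusted p below 0.05.

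Control livers differed among themselves. Among the 5 C57BL CMC cohorts, 3 of the 8 genes differed in limma's F-test, where 33.2% of all genes did. Cd36 ranged from a mean of 7.98 in Co4 to 9.16 in Co1 (adjusted p = 0.00613), Fabp2 from 9.57 in Co2 to 11.01 in Co3 (adjusted p = 1.96e-07) and Slc27a2 from 13.97 in Co2 to 14.24 in Co1 (adjusted p = 0.0159). Co2 and Co4 served compounds given intraperitoneally, and Co1 and Co5 served compounds given by gavage. For these 3 genes Co2 and Co4 had the lowest means. Cd36 was at 7.98 and 8.10 in Co4 and Co2, and at 8.82, 8.95 and 9.16 in Co5, Co3 and Co1. A part of the route was not tested, and route cannot be told apart from cohort. The comparisons of PBO, WY, C57BL CITCO and the livers labelled Pio and MePy each have 1 of these cohorts as control, so the cohort enters those differences. None of the 8 passed between the 2 CMC strains, between water at 56 and 28 days or between corn oil and water, where 0.126%, 0.033% and 0.115% of all genes did; at an unadjusted p below 0.05 there were 2, 1 and 1.

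In the order of group means, all 8 genes were highest with WY. The lowest groups were CITCO in hCAR/hPXR for Cd36, CPA for Lpl, Fabp1 and Slc27a4, DCB for Vldlr and Slc27a2, and Co2 for Fabp2 and Slc27a1. Group means spanned 4.34 for Cd36, 4.22 for Lpl, 2.09 for Vldlr, 2.06 for Fabp2 and 1.59 for Slc27a1, and between 0.44 and 0.72 for Fabp1, Slc27a2 and Slc27a4. Of the 18 pairs of neighbours in each order, the ranges were apart in 1 for Lpl and 1 for Vldlr, both between WY and the next group, and overlapped in the rest.

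**Figure D4:**
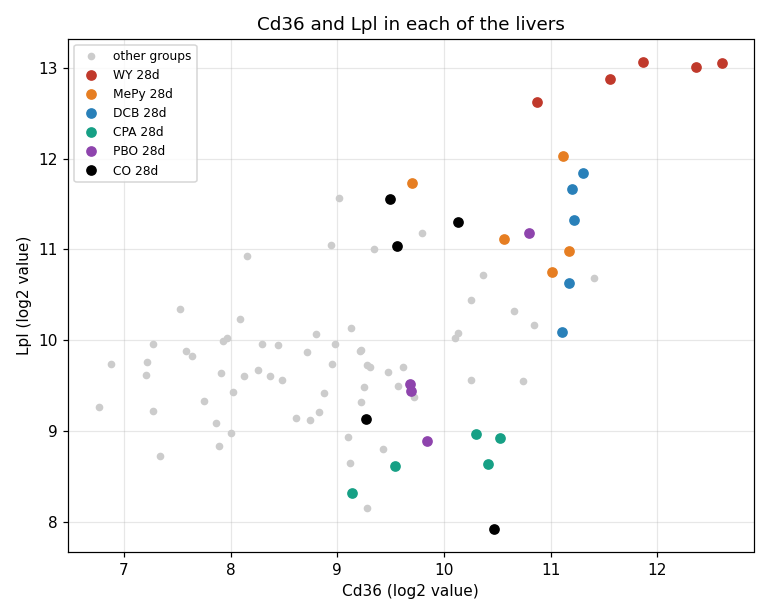
Cd36 (horizontal axis) against Lpl (vertical axis), both log2 values, 1 point per liver, with 6 groups coloured and the other groups grey. WY livers lie at the upper right, DCB livers share a Cd36 level near 11.2 while their Lpl runs from 10.09 to 11.84, and CPA livers lie low for Lpl at 8.32 to 8.97.

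The probe sets of a gene moved in 1 direction with WY but not by the same amount. Of single probe sets with 1 gene symbol, 8.67% passed with WY in either direction, 0.12% in the livers labelled MePy, 2.76% with DCB, 0.587% with PBO and 4.09% with CPA. All 6 Vldlr probe sets rose with WY, by 0.66 to 3.87, all 3 of Cd36 by 2.69 to 3.31, both of Lpl by 3.88 and 4.13 and both of Slc27a1 by 1.13 and 1.19. The Vldlr probe set at 3.87 is of a kind that can share probes with other transcripts, and the highest of the others was 2.83. In the livers labelled MePy all 3 Cd36 probe sets rose (1.76 to 2.17), and 1 of 2 for Lpl passed, at 2.16 (adjusted p = 0.0336, limma over all probe sets). With DCB all 3 of Cd36 rose (1.42 to 1.66). With PBO 2 of the 3 Cd36 probe sets passed, and the changes over all 3 were 1.49 to 1.90. With CPA the other Fabp1 probe set was at -0.20 (adjusted p = 0.0515) and the other Lpl probe set at -1.35 (adjusted p = 0.0808).

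**Figure D5:**
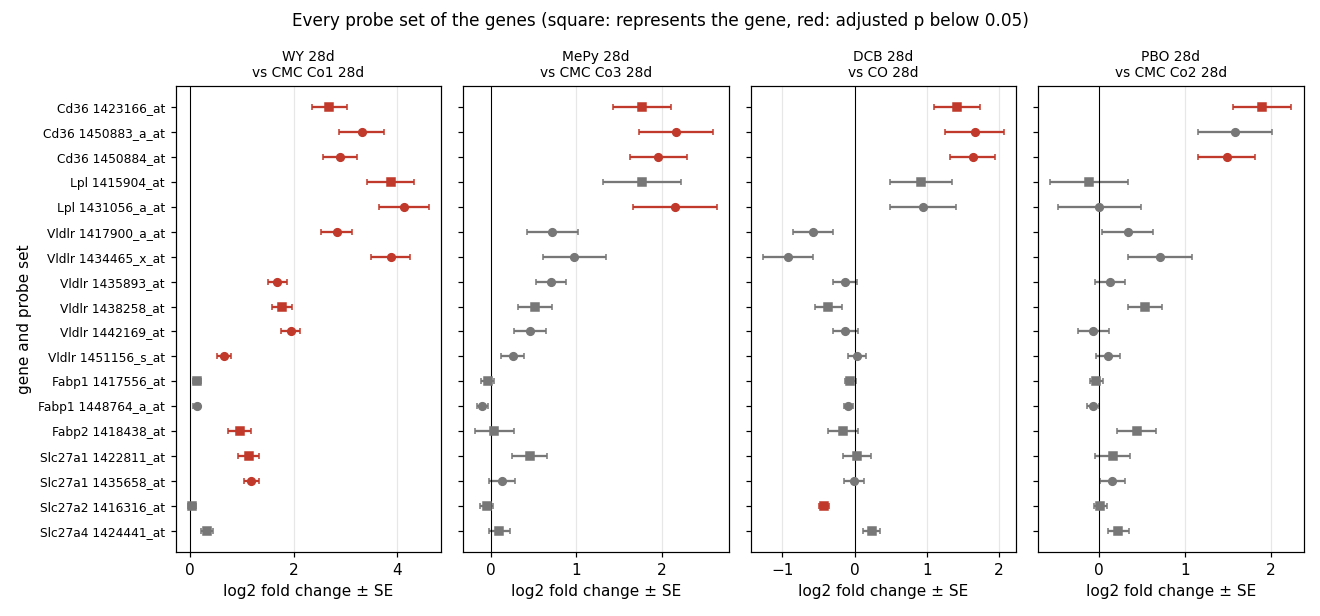
Log2 fold change with its SE (horizontal axis) of each of the 18 probe sets (vertical axis) with WY, MePy, DCB and PBO, red where the adjusted p was below 0.05, square for the probe set that stands for the gene. All 6 Vldlr probe sets are red with WY (0.66 to 3.87) and none in the other 3 panels.

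Genes with the most similar pattern were found by Pearson's r over the 19 group means, among 3891 or 3892 genes whose group means spanned at least 1. These r describe group means that share arrays and cohorts. Cd36 was closest to Gpat3, a glycerol-phosphate acyltransferase (r = 0.890), Mgst3 (0.852) and Zmat1 (0.831), and these were at 0.825 to 0.855 without WY. Fabp2 was closest to Acot1, a thioesterase (0.921), Khdrbs3 (0.912) and Acadm, a beta-oxidation enzyme (0.901). Lpl was closest to Bhlhb9 (0.913), Nck2 (0.870) and Plaat3 (0.865). Vldlr was closest to Acot2 (0.920), Cidea (0.908) and Otop1 (0.902), and Slc27a1 to Otop1 (0.924), Cox6b2 (0.914) and Mogat1 (0.913). For Slc27a1 these fell to 0.335, 0.132 and 0.446 without WY. The Vldlr values fell to 0.576, 0.641 and 0.308 without WY, and the Lpl values to 0.815, 0.658 and 0.717. Fabp1 was closest to Mme (0.896), Slc27a2 to Hykk (0.846) and Slc27a4 to Atp9a (0.828). Among the 8 genes themselves, Vldlr and Slc27a1 were closest (0.833), and 0.098 without WY.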

How the data were processed

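RNA was extracted from frozen liver with Qiazol, labelled by an Affymetrix 3'IVT protocol and hybridised to arrays, per the labels' protocols. The authors deposited 1 log2 value per probe set and array, made by RMA according to the submitters' processing notes (no version given); a genome build was not given in the sources used here. RMA puts all arrays on 1 distribution, so a change in total RNA is not seen. Of 45037 probe sets, 34945 carried 1 gene symbol in the platform table, 932 several and 9160 none. Where a gene had several probe sets of 1 symbol, the one with the highest mean stood for it, which left 18193 genes. Slc27a6 and Acsl1 were not analysed here.

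All 19 groups were fitted together with limma 3.58.1 (R 4.3.3; trended variance, 72 residual degrees of freedom), with Benjamini-Hochberg adjustment over all genes and a threshold of 0.05. SE and intervals (95%) come from that fit. The code was tested on simulated data. The number of livers per group, 4 or 5, limits the precision, and p-values measure the spread between these samples, since the labels do not say that every array is a separate animal. Replicate numbers were taken from titles and did not pair the samples: same-numbered livers correlated at -0.321 to 0.223. The phenobarbital titles at 28 days carry an unexplained suffix. The genes and lists were chosen with earlier results of these data known. Genes are named where they belong to the 8, where they are among the 3 largest changes that passed in a list, where they are marker genes of a cell type or compound, or where they are among the 3 most similar.

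Alternatives were other probe set rules, a filter on dim genes, array weights, median centring, a replicate block, other control groups, fits of only the groups compared and leaving out each liver.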

Additional observations from a re-analysis of the deposited data

Results flagged for a closer look

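Within groups of 4 or 5 livers, 12 of 152 sets of values had a liver that stood apart from the others by Dixon's test, where chance flags about 1 in 20 groups. For Cd36 these were the second CITCO liver of the hCAR/hPXR strain, at 9.02 with the next at 7.27, and the second PBO liver, at 10.80 with the next at 9.84. For Lpl the second CITCO liver of the hCAR/hPXR strain was at 11.57 with the next at 9.76, and the second Co3 liver was at 11 with the next at 9.15. For Vldlr the fifth phenobarbital liver at 56 days was at 5.50, and the fourth liver labelled Pio was at 5.2.

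For Fabp1 the livers that stood apart were all low: the second labelled MePy at 14.62, the second PBO liver at 14.38, the second WY liver at 14.68 and the fifth water liver at 56 days at 14.69. For Slc27a1 the fourth CPA liver was at 5.4, and for Slc27a2 the fourth Co4 liver was at 13.85, each the lowest of its group.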

How the results depend on the processing

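Counts of the 8 genes called were recomputed under up to 11 other settings. With only the groups compared in the fit, the count went from 5 to 3 for WY, 3 to 0 for CPA, 1 to 0 for PBO and for the livers labelled MePy, and 0 to 1 for phenobarbital at 28 days. Another setting used the mean of the 5 C57BL CMC cohorts, which served compounds given by different routes. Against that mean the count was 8 for WY, 4 for MePy, 3 for PBO and 1 for CITCO in C57BL. For the livers labelled MePy it was 2 with the mean of all probe sets, with the probe set of largest variance and with every probe set by itself; WY minus MePy gave 2 with the mean of all probe sets and with every probe set by itself. The probe set of largest variance gave 0 for PBO and 0 for Pio minus MePy. Phenobarbital at 28 days gave 1 with the filter on dim genes, 1 with median centring and 2 with array weights, which gave 1 at 56 days. With the replicate block, whose numbers do not pair the samples, counts were the same as without it (5 for WY, 3 for CPA, 2 for DCB). Leaving out 1 liver gave 5 to 6 for WY, 2 to 3 for CPA, 2 for DCB, 1 for PBO, 1 to 2 for MePy, 0 to 1 for phenobarbital at 28 days, 4 to 5 for WY minus Pio, 1 to 3 for WY minus MePy, 0 to 1 for Pio minus MePy and 2 to 3 for CPA against DCB. Of 37 values of single genes followed, 3 changed direction under a setting or left-out liver: Fabp2 with PBO became -0.50 against the mean of the CMC cohorts, Cd36 with CITCO in C57BL became 0.0904 without Co4 replicate 5 (-0.45 to 0.0904 over all left-out livers), and Fabp2 in the livers labelled MePy became -0.0576 and -0.0665 without replicate 3 of MePy or of Co3 (-0.0665 to 0.11). The cause was not tested. Folds can be compressed at both ends of the array scale, where Fabp1, Slc27a2 and Vldlr lie. How far this affected their folds was not tested.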

Other observations

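The second CITCO liver of the hCAR/hPXR strain was the highest of its 5 for Cd36 (9.02), Lpl (11.57), Vldlr (5.42) and Fabp2 (10.65), and for Cyp4a14 (11.60, where the other 4 were at 4.73 to 7.80). Its Cyp2b10, at 11.92, lay among the others. The second PBO liver was the highest of its 4 for Cd36 (10.80), Lpl (11.18) and Cyp2b10 (11.89) and the lowest for Fabp1 (14.38).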
